A study of Homo sapiens with 6 samples.

Results

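The genes described here are 9 interferon-response genes in HEK293T cells, namely BST2, UBE2L6, IFITM1, IFITM2, IFITM3, ISG15, IFIT2, IFIT3 and CXCL10. They were taken by gene symbol out of 18774 genes named on the arrays, and 14 of 48701 probes carried one of the 9 symbols. The members were chosen by their measured intensities in all 3 groups, earlier results of these data having shown some of them higher and others lower in transfected cells, so their differences from the control and between the doses are given as descriptions, with no test. HEK293T cells derive from human embryonic kidney and express the large T antigen of SV40. Expression was profiled on 6 bead arrays, with 2 biological duplicates in each of 3 groups. The groups were untransfected control cells, cells given 2 µg of a plasmid with the cloned miR-23a/27a/24-2 cluster, and cells given 4 µg of the same plasmid, the doses being per well of a 6-well plate. The labels speak of a cloned cluster and do not describe the vector, which is called a plasmid here. No group was labelled as given an empty vector, so plasmid entry, the transfection procedure and the microRNAs cannot be told apart. All 6 arrays lay on 1 chip, on which each group held a neighbouring pair of positions, so position and group cannot be told apart either.

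Type I interferons are secreted when a cell senses foreign nucleic acid, including DNA in the cytosol. They bind a surface receptor, and JAK kinases and STAT proteins together with IRF9 then switch on antiviral genes through a promoter element, the interferon-stimulated response element (ISRE). IRF1, IRF3 and IRF7 can bind related elements, and NF-kB contributes to the induction of some of the same genes, CXCL10 among them. The question put to these genes was whether entry of the plasmid was accompanied by an interferon response.

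The cluster encodes 3 microRNAs on chromosome 19 whose mature strands are shown because they are the agent that the plasmid carries. The sequences are from RefSeq (GRCh38.p14, minus strand), with the seed, bases 2 to 8, in capitals. The 3 seeds differ from one another.
hsa-miR-23a-3p: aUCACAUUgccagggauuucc
hsa-miR-27a-3p: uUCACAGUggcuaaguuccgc
hsa-miR-24-3p: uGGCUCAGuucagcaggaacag

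Promoters of the members were searched for the ISRE letters GAAA, any 2 bases, then GAAA again, on both strands, from 250 bases before to 50 bases after the gene start. RefSeq promoters (GRCh38.p14) were matched for 7 of the 9 members, and IFITM2 and IFIT2 were not among them. The letters were found in 6 of these 7, against 3.65% of 27305 promoters of the same length. The windows below are shown because they belong both to genes that were lower with the plasmid (BST2, IFITM1, IFITM3) and to CXCL10, which was higher, with the matches in capitals and 15 bases on either side. They lie at chr19:17405730-17405775 (minus strand) for BST2, chr11:313985-314058 (plus) for IFITM1, chr11:320871-320927 (minus) for IFITM3, chr1:1013369-1013414 (plus) for ISG15, chr10:89327826-89327899 (plus) for IFIT3 and chr4:76023694-76023733 (minus) for CXCL10.
BST2: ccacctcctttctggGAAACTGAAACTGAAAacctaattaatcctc
IFITM1: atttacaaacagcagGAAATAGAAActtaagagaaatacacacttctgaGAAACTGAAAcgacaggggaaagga
IFITM3: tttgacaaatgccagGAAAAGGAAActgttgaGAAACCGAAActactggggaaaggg
ISG15: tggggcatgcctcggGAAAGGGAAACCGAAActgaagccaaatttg
IFIT3: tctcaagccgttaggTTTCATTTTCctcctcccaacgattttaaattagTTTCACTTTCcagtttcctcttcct
CXCL10: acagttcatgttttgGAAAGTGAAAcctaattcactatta
In BST2 and in ISG15 the 2 matches overlap each other, and in IFIT3 both lie on the other strand. The first match begins 130 bases before the start in BST2, 113 in ISG15, 156 in IFIT3 and 221 in CXCL10. It begins 52 bases before the start in IFITM3 and 40 in IFITM1. UBE2L6 held no match in its window. A match of letters describes the sequence and was not tied to binding.

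Of the 14 member probes, 9 passed the detection filter (detection p-value under 0.01 on each array of 1 or more groups), 1 for each gene, and all 9 genes were therefore tested in the fit over 8018 genes. CXCL10 passed through the transfected groups alone. The other 5 probes, 1 of BST2, 2 of UBE2L6 and 2 of IFIT3, were detected on 0 of 6 arrays and gave no second reading of their gene. Each kept probe was read from 32 to 67 beads, and the standard error over beads was between 2.99% and 6.00% of the signal. Values below are background-corrected, quantile-normalized log2 intensities, differences are transfected minus control on that scale, and errors are standard errors of the fit with 2 arrays per group.

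As they were chosen, the members lay on both sides of the control. At 2 µg the arrays of transfected and control cells did not overlap for 8 of the 9, 3 of them higher and 5 lower than the control, against 69.6% of all tested genes. At 4 µg they did not overlap for 8 of 9, 2 higher and 6 lower, against 65.8%. Because these contrasts chose the members, nothing is read from those counts. In bulk RNA of this kind, fewer cells that express a gene and less of its RNA per cell cannot be told apart. The median difference of the 9 was -0.82 at 2 µg and -0.61 at 4 µg, against 0.03 over all tested genes at each dose. These medians also follow from the choice of members, and nothing is read from them.

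**Figure D1:**
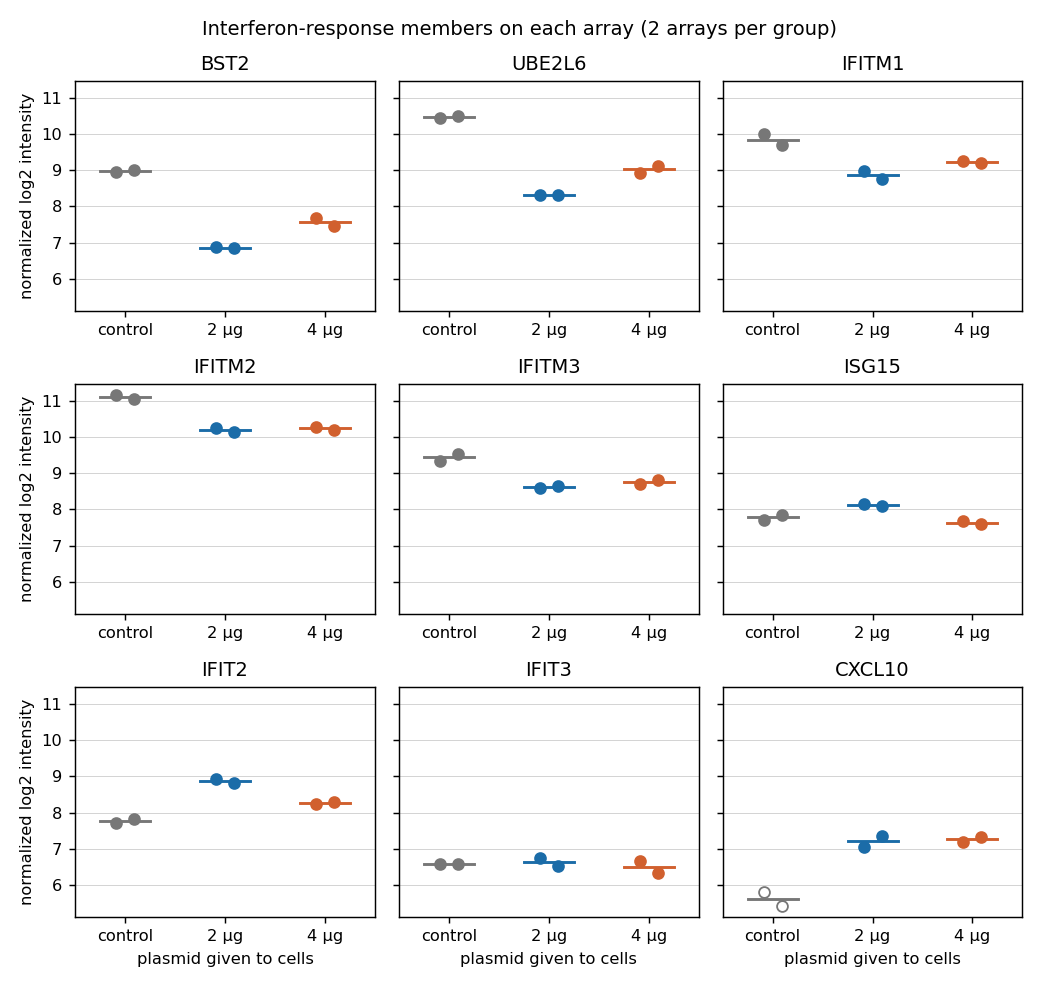
Normalized log2 intensity of each of the 9 members (vertical axis) on the 2 control, 2 µg and 4 µg arrays (points; lines are group means; open points mark a group in which the probe was detected on no array). BST2, UBE2L6 and the 3 IFITM genes are lower in both transfected groups than in the control, IFIT2 and CXCL10 are higher, and ISG15 and IFIT3 lie close to the control.

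The ISG15 system attaches a ubiquitin-like protein, ISG15, to other proteins, and UBE2L6 (UbcH8) is its conjugating enzyme. UBE2L6 measured 10.43 and 10.48 in control cells, 8.30 and 8.30 at 2 µg, and 8.93 and 9.11 at 4 µg. Both transfected groups lay below the control without overlap, and the 4 µg arrays lay between the other groups. The difference was -2.15 (SE 0.13) at 2 µg, a 4.45-fold lower intensity, and -1.44 (SE 0.13) at 4 µg, 2.71-fold lower. In scanner units, before any normalization, UBE2L6 read 444 and 437 at 2 µg and 656 and 779 at 4 µg, against 1342 and 1519 in the control.

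ISG15 itself did not follow its enzyme. It measured 7.72 and 7.84 in control cells, 8.16 and 8.10 at 2 µg, and 7.68 and 7.59 at 4 µg. The 2 µg arrays were the highest and the 4 µg arrays the lowest, with no overlap between any of the groups. The sizes were small, 0.35 (SE 0.13) at 2 µg and -0.14 (SE 0.13) at 4 µg against the control, and the 4 µg value was 0.03 with median scaling over all probes. Genes listed with the conjugation system outside the members were also tested. One of them, ISG20, is an exonuclease rather than a conjugation enzyme and is also counted among the antiviral effectors. Of 5 tested (HERC5, HERC6, ARIH1, UBE2E1 and ISG20), 0 were called against the control at either dose with limma and the Benjamini-Hochberg adjustment over all genes. Over all tested genes 41.6% were called at 2 µg and 22% at 4 µg. In the list, 1 gene at each dose had an unadjusted p under 0.05. UBA7, the enzyme that activates ISG15, was detected on 0 arrays. HERC5, the main ligase for ISG15 in human cells, had a difference of 0.36 at 2 µg (SE 0.14, adjusted p = 0.0533) and -0.19 at 4 µg (adjusted p = 0.35), and was called at 2 µg without background correction (0.0163), with the authors' processed values (0.048) and among genes detected on all 6 arrays (0.0433).

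Restriction factors of the cell membrane gave the other large differences. BST2 (tetherin) holds budding virus particles at the cell surface. It measured 8.93 and 9.01 in control cells, 6.87 and 6.86 at 2 µg, and 7.69 and 7.45 at 4 µg. As with UBE2L6, all 4 transfected arrays lay below both controls and the 2 µg arrays were lowest. The difference was -2.11 (SE 0.13) at 2 µg, 4.32-fold lower, and -1.40 (SE 0.13) at 4 µg, 2.65-fold lower. At 2 µg the BST2 probe was near the limit of detection, with detection p-values of 0.00291 and 0.000728 and scanner signals of 258 and 242, against 568 and 639 in the control.

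IFITM1, IFITM2 and IFITM3 are small membrane proteins that block fusion of enveloped viruses with the cell. They are adjacent on chromosome 11 and close in sequence, so their probes may share transcripts of the family. IFITM1 measured 9.98 and 9.68 in control cells, 8.98 and 8.75 at 2 µg, and 9.25 and 9.20 at 4 µg. IFITM2 measured 11.17 and 11.04 in control cells, 10.24 and 10.13 at 2 µg, and 10.29 and 10.20 at 4 µg. IFITM3 measured 9.34 and 9.54 in control cells, 8.59 and 8.64 at 2 µg, and 8.71 and 8.83 at 4 µg. For each of the 3 genes every transfected array lay below both control arrays. The differences at 2 µg were -0.97 (SE 0.15) for IFITM1, -0.92 (SE 0.13) for IFITM2 and -0.82 (SE 0.13) for IFITM3. At 4 µg they were -0.61, -0.86 and -0.67 in the same order of genes. The 2 µg and 4 µg arrays overlapped for IFITM2 and did not for IFITM1 and IFITM3.

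The IFIT proteins bind viral RNA and interfere with its translation, and IFIT2 and IFIT3 are neighbours on chromosome 10. IFIT2 was higher with the plasmid. It measured 7.72 and 7.81 in control cells, 8.93 and 8.80 at 2 µg, and 8.23 and 8.29 at 4 µg, so the groups stood apart with the 2 µg arrays highest. The difference was 1.10 (SE 0.13) at 2 µg, 2.15-fold higher, and 0.49 (SE 0.13) at 4 µg, 1.41-fold higher. IFIT3 measured 6.58 and 6.57 in control cells, 6.73 and 6.51 at 2 µg, and 6.66 and 6.33 at 4 µg, and the groups overlapped. Its differences were 0.04 and -0.08 (SE 0.15), both within 1 SE of 0, at detection p-values between 0.00218 and 0.00801, so a modest change in IFIT3 was not resolvable at this signal. IFIT1, a related gene that is not among the members, was tested and fell at 2 µg by 0.62 (SE 0.12, adjusted p = 0.00255). At 4 µg the difference of IFIT1 was 0.14 (adjusted p = 0.454). IFIT1 measured 8.19 and 8.09 in control cells, 7.52 and 7.51 at 2 µg, and 8.29 and 8.26 at 4 µg.

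CXCL10 encodes a chemokine that draws activated T cells and is induced by interferon and by NF-kB. Its probe was detected on 0 of 2 control arrays, with scanner signals of 188 and 164, and on all 4 transfected arrays, with 273 and 287 at 2 µg and 286 and 320 at 4 µg. The normalized values were 5.81 and 5.41 in control cells, 7.05 and 7.36 at 2 µg, and 7.19 and 7.33 at 4 µg. Both doses lay above the control and overlapped each other. Since the control was not well above background, the difference is a lower bound, namely at least 1.69-fold higher at 2 µg and at least 1.76-fold higher at 4 µg. Each bound set the mean log2 value of the transfected arrays against the lowest detected signal of each control array, or the probe's own value where that was higher.

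**Figure D2:**
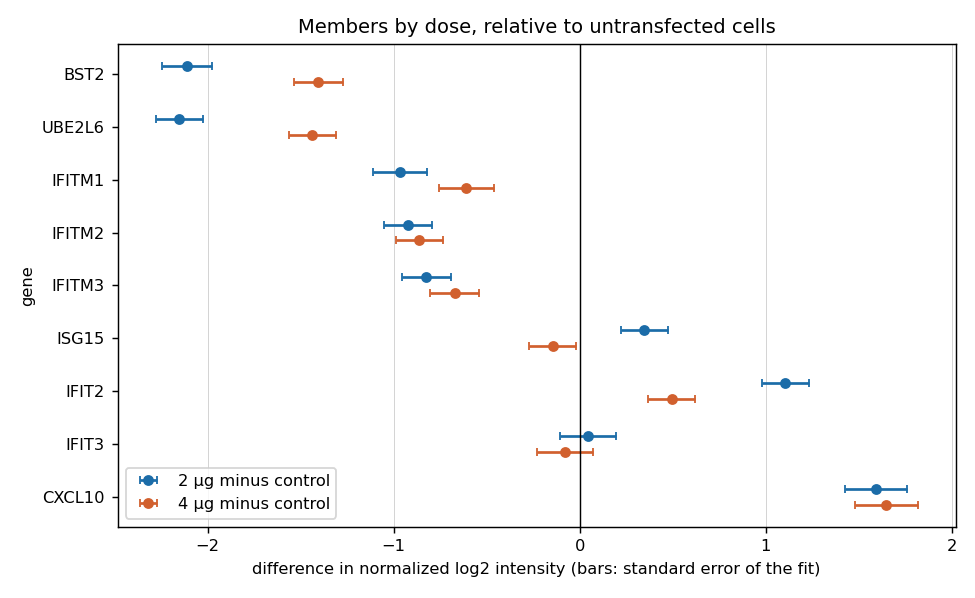
Difference in normalized log2 intensity from untransfected cells (horizontal axis; bars are standard errors of the fit, 2 arrays per group) for each member (vertical axis) at 2 µg and at 4 µg. BST2 and UBE2L6 are farthest below 0, CXCL10 is farthest above it, and for BST2, UBE2L6, IFITM1 and IFIT2 the 4 µg point is nearer to 0 than the 2 µg point; the CXCL10 points are fitted values whose control was below detection.

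For 6 of the 9 members the 4 µg mean lay between the control and 2 µg means, as it did for 56.5% of all tested genes. The exceptions were ISG15, IFIT3 and CXCL10. At 4 µg UBE2L6 showed 66.8% and BST2 66.5% of the log2 difference seen at 2 µg, IFITM1 62.9%, IFITM3 81.6%, IFITM2 93.4%, IFIT2 44.8% and CXCL10 103%. ISG15 and IFIT3 had differences of opposite sign at the 2 doses, and that of IFIT3 was -0.08 at 4 µg and 0.04 at 2 µg. Both doses were set against the same control arrays, so these shares are not independent of each other. Set against 2 µg directly, 4 µg differed by 0.71 (SE 0.13) for BST2, 0.72 (SE 0.13) for UBE2L6, -0.49 (SE 0.13) for ISG15 and -0.61 (SE 0.13) for IFIT2. The 4 µg and 2 µg arrays did not overlap for 6 of 9 members, against 57.3% of all tested genes.

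Likeness of pattern was measured as the root mean square difference over the 6 arrays between the log2 values of a pair of genes, each centred on its own mean. BST2 and UBE2L6 were alike, with a difference of 0.12, and each was among the pair of genes nearest to the other out of all tested genes. The other nearest gene was SLC29A4 for BST2 (0.12) and TMT1A for UBE2L6 (0.15). IFIT2 was nearest to EXO1 (0.03) and DDX10 (0.04), and CXCL10 to BHLHE41 (0.12) and IFRD1 (0.13). IFITM1 was nearest to ZNF526 (0.07) and PRKCSH (0.07), IFITM2 to EFEMP2 (0.05) and FSTL1 (0.06), and IFITM3 to WDR26 (0.03) and PDE8B (0.05). ISG15 was nearest to FAM107B and WEE1, and IFIT3 to WDR44 and PDLIM3, each at 0.03. In all of these the values come from the same 6 arrays, and 0 of the nearest genes other than UBE2L6 and BST2 are members.

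The rest of the interferon pathway was read from a list of 203 genes that excludes the members. Of these 191 were named on the arrays and 81 passed the detection filter. At 2 µg 21 of the 81 rose, 13 fell and 47 were not called, so 42.0% were called, against 41.6% of all tested genes. At 4 µg 12 rose, 8 fell and 61 were not called, which is 24.7%, against 22% of all tested genes. The median differences were 0.10 at 2 µg and 0.08 at 4 µg. Of the genes that rose at 2 µg, MX1, PNPT1, DTX3L, IL15, JAK2, IRF2BP2 and TAPBP passed the filter through the transfected groups alone. That route favours a rise, so nothing is read from the direction of these genes. Of the genes that fell at 2 µg, GMPR passed through the control alone, which favours a fall. Among genes detected on all 6 arrays, 15 of 61 rose at 2 µg and 9 fell, against 1539 and 1361 of 6821 over all genes. An adjusted p given below beside a lower bound belongs to the fitted difference, not to the bound. At 4 µg, leaving out control replicate 1 gave a count of 10, control replicate 2 of 12, 4 µg replicate 1 of 11 and 4 µg replicate 2 of 10, and the split was 17 higher and 6 lower with median scaling over all probes.

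**Figure D3:**
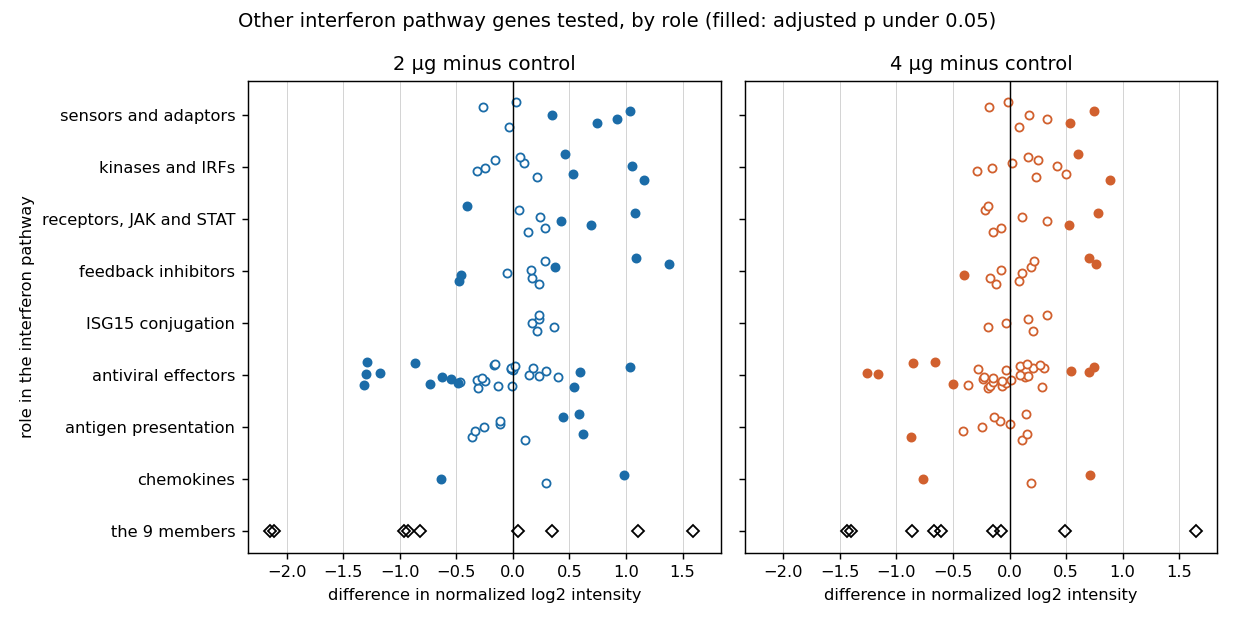
Difference in normalized log2 intensity from control (horizontal axes) at 2 µg (left) and 4 µg (right) for each tested interferon pathway gene outside the members, in rows by role, with filled points for an adjusted p under 0.05 (limma). Open diamonds in the bottom row are the 9 members, without a test. Points of the antiviral effectors lie on both sides of 0. At 2 µg 9 of 30 were called lower and 3 higher, against 19.8% and 21.8% of all tested genes.

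Interferon genes themselves were at or near background. Of 21 interferon ligand genes on the arrays, 20 had no detection on any array, and 1, IFNA5, passed on a single control array. IFNB1, the interferon made first by most non-immune cells, had scanner signals between 168 and 211 and a lowest detection p-value of 0.0349. At this sensitivity a low level of ligand RNA would not be detectable.

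Among sensors and adaptors 4 of 7 tested genes rose at 2 µg and 3 were not called, where 21.8% of all tested genes were called higher. The 4 were IFIH1 and the RNA polymerase III subunits POLR3A, POLR3B and POLR3C. POLR3C, a subunit of RNA polymerase III, the enzyme that can transcribe AT-rich cytosolic DNA into RNA ligands, rose by 1.04 (SE 0.13, adjusted p = 0.0002), and its largest subunit POLR3A by 0.92 (SE 0.21, adjusted p = 0.00492). IFIH1 (MDA5), a sensor of long double-stranded RNA, rose by 0.74 (SE 0.15, adjusted p = 0.00311). At 4 µg POLR3C rose by 0.75 (SE 0.13, adjusted p = 0.00367). POLR3A had a difference of 0.33 at 4 µg, with overlapping groups (SE 0.21, adjusted p = 0.272, and 0.0499 with all-probe median scaling). IFIH1 rose at 4 µg by 0.53 (adjusted p = 0.0304), and the call was lost without any 1 of the 4 arrays compared, without a detection filter and without background correction (adjusted p between 0.0071 and 0.179 over all alternatives). The RNA sensor RIGI and the DNA sensor CGAS were detected on 0 arrays.

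Of 10 tested kinases, adaptors and interferon regulatory factors, 4 rose at 2 µg and 6 were not called, where 21.8% of all tested genes were called higher. IRF1, a transcription factor that both interferon gamma and NF-kB can induce, measured 9.32 and 8.97 in control cells, 10.38 and 10.22 at 2 µg, and 10.03 and 10.03 at 4 µg. It rose by 1.16 at 2 µg (SE 0.15, adjusted p = 0.000217) and by 0.89 at 4 µg (SE 0.15, adjusted p = 0.00299). IRF7, the factor that amplifies interferon alpha genes, rose by 1.05 at 2 µg (SE 0.16, adjusted p = 0.000683) and had a difference of 0.42 at 4 µg (adjusted p = 0.0909, and 0.0173 with all-probe median scaling). IRF3, which is activated by phosphorylation, had -0.31 (SE 0.18, adjusted p = 0.176, and 0.0407 without 2 µg replicate 1) at 2 µg and -0.29 (adjusted p = 0.257) at 4 µg. TRAF6, a ligase of sensor and cytokine signalling, rose by 0.46 (adjusted p = 0.0362) at 2 µg and by 0.60 (adjusted p = 0.021) at 4 µg. The TRAF6 call was lost in 10 of 16 alternatives at 2 µg (adjusted p up to 0.221, without 2 µg replicate 2) and in 5 of 16 at 4 µg (up to 0.122, without control replicate 1). At 4 µg it was lost without any 1 of the 4 arrays compared and without a detection filter. At 2 µg it was lost without either control array, either 4 µg array or 2 µg replicate 2, and with 5 other settings. IRF2BP2, a corepressor, was detected on 0 of 2 control arrays and 1 of 2 arrays at 2 µg. It passed the detection filter through the 4 µg group alone, which favours a rise, so nothing is read from its direction. Its lower bound of 1.03-fold at 2 µg was not strict, because 1 array at 2 µg was itself undetected. IRF2BP2 was called higher at 2 µg (adjusted p = 0.0322). That call was lost in 5 of 15 alternatives, namely without control replicate 1 (0.188), control replicate 2 (0.0531) or 2 µg replicate 2 (0.218), without background correction (0.0984) and without a detection filter (0.0892). IRF9, the DNA-binding part of the complex that interferon activates, had 0.10 (SE 0.13, adjusted p = 0.565) at 2 µg and 0.02 (adjusted p = 0.919) at 4 µg.

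Receptors and their kinases gave 3 rises and 1 fall among 8 tested genes at 2 µg, against 21.8% and 19.8% of all tested genes. The kinase JAK2 was detected on 0 of 2 control arrays and 1 of 2 arrays at 2 µg. It was called higher (adjusted p = 0.00222), with a lower bound of 1.26-fold. That bound was not strict, because 1 array at 2 µg was itself undetected. JAK2 passed the detection filter through the 4 µg group alone, which favours a rise, so nothing is read from its direction. IFNGR1, a chain of the interferon gamma receptor, rose by 0.69 (SE 0.16, adjusted p = 0.00565). IFNGR2, its partner chain, rose by 0.43 (adjusted p = 0.0263), but not with control replicate 1 (0.0676), control replicate 2 (0.12), 2 µg replicate 1 (0.0542) or 2 µg replicate 2 (0.0866) left out. TYK2, a kinase of the type I receptor, fell by 0.41 (SE 0.13, adjusted p = 0.0235). The TYK2 call was lost with the authors' processed values (0.08), with median scaling over all probes (0.114), and when control replicate 1 (0.121) or 2 µg replicate 2 (0.0809) was left out, within 0.00536 to 0.121 over all alternatives. STAT2 was not analysed here.

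Of 10 feedback inhibitors 3 rose and 2 fell at 2 µg, against 21.8% and 19.8% of all tested genes. PTPN2, a phosphatase that acts on JAK1, measured 6.53 and 6.81 in control cells, 8.12 and 7.97 at 2 µg, and 7.30 and 7.56 at 4 µg. It rose by 1.38 at 2 µg (SE 0.15, adjusted p = 8.69e-05), the largest rise among the 81 genes, and by 0.76 at 4 µg (adjusted p = 0.00652), where the call ended without control replicate 1 (0.0575) or 4 µg replicate 2 (0.0646), within 0.000531 to 0.0646 over all alternatives. TNIP1, which restrains NF-kB with TNFAIP3, rose by 1.09 at 2 µg (SE 0.16, adjusted p = 0.000525). PIAS3, an inhibitor of STAT3, fell by 0.46 at 2 µg (adjusted p = 0.0138). The PIAS3 call was lost without control replicate 1 (0.0771) or 2 µg replicate 2 (0.0529), with the authors' processed values (0.0502) and with all-probe median scaling (0.0725). USP18, the protease that removes ISG15 and a classical interferon-induced gene, passed detection on 3 of 6 arrays, 1 in each group, and was not tested.

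Among 30 tested antiviral effectors 9 fell and 3 rose at 2 µg, where 19.8% of all tested genes were called lower and 21.8% higher. At 4 µg 5 fell and 3 rose, where 10.2% of all tested genes were called lower and 11.8% higher. Their median difference was -0.16 at 2 µg and -0.05 at 4 µg. Of the effectors that fell, GMPR passed the detection filter through the control alone, which favours a fall, so nothing is read from its direction. GBP2 and IFI27L1, which also fell at 2 µg, were undetected there. GMPR and IFI27L1 were named after their values were seen. ZC3HAV1 (ZAP), which targets CpG-rich viral RNA, measured 10.83 and 10.54 in control cells, 9.43 and 9.37 at 2 µg, and 10.08 and 9.98 at 4 µg. It fell by 1.29 at 2 µg (SE 0.14, adjusted p = 8.28e-05). LGALS3BP, a secreted glycoprotein, fell by 1.30 at 2 µg (SE 0.14, adjusted p = 7.35e-05) and by 1.16 at 4 µg (adjusted p = 0.000544). GBP2, a guanylate-binding protein, was detected on 0 of 2 arrays at 2 µg and was at least 1.90-fold lower there (adjusted p = 6.55e-05). At 4 µg its difference was -0.37 (adjusted p = 0.0792, and 0.0425 with median scaling over tested genes). LY6E, a membrane-anchored protein detected on 1 of 2 arrays at 2 µg, fell by 1.18 (SE 0.20, adjusted p = 0.00101), and TRIM5, a capsid-binding restriction factor, by 0.87 (SE 0.13, adjusted p = 0.000519).

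The effectors that rose at 2 µg were MX1, PNPT1 and DTX3L, the last 2 named after their values were seen. They passed the detection filter through the transfected groups alone, which favours a rise, so nothing is read from their direction. MX1, a dynamin-like GTPase used as a standard readout of interferon, passed detection on 0 of 2 control arrays and stood at least 1.42-fold higher at 2 µg (adjusted p = 0.0127) and at least 1.54-fold higher at 4 µg (adjusted p = 0.0115). Its call at 2 µg ended without control replicate 1 (0.0787) or 2 µg replicate 2 (0.0807), within 0.00375 to 0.0807 over all alternatives. At 4 µg it ended without control replicate 1 (0.0784), 4 µg replicate 1 (0.0523) or 4 µg replicate 2 (0.0688), within 0.00172 to 0.0784. PNPT1, a mitochondrial ribonuclease, and DTX3L, a ubiquitin ligase, were also detected on 0 of 2 control arrays. At 2 µg PNPT1 was at least 1.36-fold higher (adjusted p = 0.00433) and DTX3L at least 1.20-fold higher (adjusted p = 0.00611). OAS1, which makes the messenger that activates RNase L, had 3 probes, 2 of them detected on 0 arrays and 1 on 2 of 6 arrays, and was not tested.

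In antigen presentation 3 of 9 tested genes rose and 6 were not called at 2 µg, while 1 fell and 8 were not called at 4 µg. Over all tested genes 21.8% were called higher at 2 µg and 10.2% lower at 4 µg. HLA-E, a non-classical class I molecule, rose by 0.62 at 2 µg (SE 0.14, adjusted p = 0.005). TAPBP, which loads peptides onto class I molecules, was detected on 1 of 2 control arrays and rose by 0.59 at 2 µg (adjusted p = 0.0168). It passed the detection filter through the 2 µg group alone, which favours a rise, so nothing is read from its direction. The TAPBP call was lost without control replicate 1 (0.139), 2 µg replicate 1 (0.0586) or 2 µg replicate 2 (0.0576), without background correction (0.057) and without a detection filter (0.0501). The proteasome genes PSMB10 and PSME1 had differences of -0.33 (adjusted p = 0.0771, and 0.0468 without background correction) and -0.26 (adjusted p = 0.147) at 2 µg. HLA-B, a classical class I gene whose probe may bind related alleles and genes and was detected on 1 of 2 arrays at 4 µg, fell by 0.87 at 4 µg (SE 0.13, adjusted p = 0.00203) and had -0.36 at 2 µg (adjusted p = 0.0526, with 0.0287 under median scaling over tested genes and 0.046 without control replicate 2). Of 3 tested cytokines and chemokines outside the members, IL15, a growth factor of natural killer cells, passed detection on 0 of 2 control arrays. It stood at least 1.85-fold higher at 2 µg (adjusted p = 0.000372). IL15 passed the detection filter through the transfected groups alone, so nothing is read from its direction. CXCL16 fell by 0.64 at 2 µg (SE 0.13, adjusted p = 0.00316) and by 0.76 at 4 µg (adjusted p = 0.00355). CCL2, a monocyte chemokine, had a difference of 0.29 at 2 µg (adjusted p = 0.0938). CXCL9 and CXCL11, the chemokines that share a receptor with CXCL10, did not pass the detection filter.

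Between the doses 8 of the 81 pathway genes were called, 3 higher and 5 lower at 4 µg, which is 9.88%, against 8.79% of all tested genes (5.23% higher and 3.57% lower). The genes that rose at 4 µg relative to 2 µg were GBP2, at least 1.47-fold (adjusted p = 0.00504), IFIT1 by 0.76 (adjusted p = 0.00714) and ZC3HAV1 by 0.63 (adjusted p = 0.0233). GBP2 was detected on 0 of 2 arrays at 2 µg, so it was not tested where detection on all 6 arrays was required. Those that fell were IRF7 by 0.63 (adjusted p = 0.0412), PTPN2 by 0.62 (adjusted p = 0.0324), TAP2 by 0.58 (adjusted p = 0.0263), HERC5 by 0.55 (adjusted p = 0.0346) and HLA-B by 0.51 (adjusted p = 0.0425). With the mean of its kept probes TAP2 had a difference of -0.29 (adjusted p = 0.174), so its probes did not give the same size. Of these 8, GBP2 passed in every alternative that was run (adjusted p up to 0.0417). The highest adjusted p over the alternatives was 0.0621 for IFIT1, 0.159 for ZC3HAV1, 0.242 for IRF7, 0.229 for PTPN2, 0.174 for TAP2, 0.209 for HERC5 and 0.212 for HLA-B. The count was 1 without 4 µg replicate 1 or 4 µg replicate 2 and 3 without 2 µg replicate 1 or 2 µg replicate 2, and the split was 7 higher and 0 lower with median scaling over all probes and 3 higher and 2 lower with the authors' processed values.

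Over the whole series, 9278 to 10371 of 48701 probes were detected per array, and duplicates correlated across genes at 0.9898 to 0.9941. Of 7 genes typical of the line, PAX2 and LHX1 were undetected on every array, NEFL was undetected at 2 µg, and the other 4 were detected in each group. The summed normalized intensity of the 7 was 4323 to 5167 at 2 µg and 4820 to 5786 at 4 µg, against 6562 to 8175 in the control. Among them NEFL, a neurofilament gene, was at least 3.80-fold lower at 2 µg (adjusted p = 1.96e-05), and the keratin gene KRT8 fell by 1.19 at 2 µg (SE 0.14, adjusted p = 0.000128). These markers were lower in the same groups as BST2, UBE2L6 and the IFITM genes, and their part in the results was not tested. Of 8 haematopoietic markers CD68 alone was detected, and PTPRC, CD14 and CD3E were at background on every array; their summed normalized intensity was 616 to 739 at 2 µg and 614 to 702 at 4 µg, against 512 to 513 in the control. Of 7 fibroblast markers COL1A1, COL3A1 and LUM were detected, LUM not at 2 µg, with sums of 452 to 485 at 2 µg and 551 to 558 at 4 µg, against 672 to 686 in the control, and COL1A2, DCN, THY1 and PDGFRB were undetected throughout. Of 5 endothelial markers PECAM1, CDH5 and KDR were undetected throughout. VWF and TEK were detected in the transfected groups alone, TEK on 1 of 2 arrays in each. Sums of the 5 were 300 to 301 at 2 µg and 286 to 290 at 4 µg, against 212 to 216 in the control, where all 5 were undetected. The part of other cell types in the results was not tested. The housekeeping gene GAPDH had a difference of -0.69 at 2 µg (adjusted p = 0.0059) and TBP of 0.13 (adjusted p = 0.437).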

How the data were processed

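Total RNA of 6 HEK293T cultures was hybridized to Illumina Human-6 arrays, per the labels' protocols, and BeadStudio was used, per the submitters' processing notes (version not given in the sources used here). In the deposited files, the scanner table holds the mean bead intensity per probe, not normalized, with its standard error, the count of beads and a detection p-value, per the file headers. The authors' processed table is an intensity that followed the scanner value linearly on each array; it served as an alternative, with values under 16 set to 16.

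Here, limma 3.58.1 in R 4.3.3 was used. neqc corrected the background from the detection p-values, added an offset of 16 and quantile-normalized on the log2 scale. Probes with a detection p-value under 0.01 on each array of 1 or more groups were kept, and the brightest kept probe stood for its gene. Symbols came from the platform annotation, which named 1 gene for 23687 probes and several for 35; 23651 probes were matched to RefSeq. The fit pooled all 3 groups, with 3 residual and 7.42 prior degrees of freedom, two-sided tests and Benjamini-Hochberg adjustment over 8018 genes at 0.05. Simulated data for 2 µg against control held 8018 genes, 100 of them changed at each size. There it recovered 81% of changes of 1 and 98% of changes of 2 on the log2 scale, with 12 false calls. For 4 µg against 2 µg it recovered 75% of changes of 1. Far fewer genes changed in the simulation than were called at 2 µg in these data, so recovery may differ here. The number of arrays limits precision, and the labels call the duplicates biological without saying what separated them, so p-values measure the spread between these samples. Members and lists were chosen with earlier results of these data known. Named pathway genes were the 3 with the smallest p at each dose in each role list, plus IFNB1, STAT2, IRF1, IRF3, IRF7, IRF9, MX1, OAS1, IFIT1, USP18 and UBA7. An item of the rule is not reported here. For each member, 2 genes were named by likeness. Alternatives changed the scaling, background, filter, probe rule, samples fitted and replicate block, and left out each array.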

Additional observations from a re-analysis of the deposited data

How the results depend on the processing

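Over 16 alternatives the differences of BST2, UBE2L6, IFITM1, IFITM2, IFITM3 and IFIT2 from the control kept their sign at both doses, as did those of CXCL10 over the 15 that tested it. The 2 µg difference ranged from -2.20 to -1.34 for BST2, from -2.18 to -1.77 for UBE2L6, from 0.77 to 1.20 for IFIT2 and from 0.70 to 2.44 for CXCL10. IFIT3 changed sign in 3 alternatives at 2 µg and 1 at 4 µg, and ISG15 in 1 at 4 µg. With genes detected on all 6 arrays, CXCL10 dropped out, which left 1 member higher at 4 µg.

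Leaving out single arrays gave 2472 to 3110 calls at 2 µg, 728 to 2009 at 4 µg and 96 to 559 for 4 µg against 2 µg. Among the other pathway genes it gave 25 to 31, 10 to 21 and 1 to 7 calls in the same order, and 3 to 4, 2 to 3 and 5 to 6 members higher. Without a detection filter 4 µg against 2 µg had 273 calls over all genes and 2 among the pathway genes, against 705 and 8; more genes were then tested. With the authors' processed values the pathway genes had 5. Median scaling over all probes moved the median of all genes at 4 µg to 0.18, against 0.03, and the split of all calls there to 1600 higher and 357 lower, against 943 and 817; 4 µg against 2 µg split into 870 and 102, against 419 and 286. The authors' values gave 1215 and 536 at 4 µg; median scaling over tested genes gave 771 and 1050. The cause was not tested.

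The labels do not say whether same-numbered samples were paired. Deviations of same-numbered arrays from their group means correlated across genes at -0.04, -0.09 and 0.11, which cannot settle how the cultures were prepared. With a replicate block 3330, 1753 and 709 genes were called at 2 µg, at 4 µg and between doses, and 33, 20 and 10 pathway genes.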

Other observations

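The ISRE letters were also counted in the promoters of genes outside the members, a list chosen after the members' values were seen and given no test. Of 6697 tested genes with a matched promoter, 170 held GAAA, any 2 bases, then GAAA again. At 2 µg 38 of the 170 (22.4%) were called higher and 25 (14.7%) lower, against 22.0% and 19.1% of all 6697. At 4 µg 20 (11.8%) were higher and 17 (10%) lower, against 11.9% and 9.54%. The median log2 differences of the 170 were 0.09 at 2 µg and 0.07 at 4 µg, against 0.03 over all 6697 at each dose. The members with the letters, which lay on both sides of the control, were left out of these counts.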
